A study of Homo sapiens with 9 samples.

Results

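The genes described here encode the chaperones, folding enzymes, stress sensors and quality-control machinery of the endoplasmic reticulum (ER). Members were chosen by name from a list of 40 genes, and every probe set that the platform annotation pairs with 1 of these symbols alone was followed. Of the 40 genes, 38 had values, on 74 of the 15485 single-gene probe sets with values, among 9453 genes in all. PDIA5, a disulfide isomerase, and SYVN1, the ubiquitin ligase of ER-associated degradation, had no probe set named by that symbol alone and are not analysed here. Of the 38, 34 passed the filter on low values used for testing, and SIL1, FKBP14, ERN1 and WFS1 did not.

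RNA came from HT1080, a line grown from a human fibrosarcoma, kept in DMEM and hybridised to 9 Affymetrix arrays. There were 3 biological replicates each of MTAP-positive cells given 10 µM MT-DADMe-ImmA for 48 hours, untreated MTAP-positive cells, and untreated MTAP-negative cells. MTAP, methylthioadenosine phosphorylase, cleaves the methylthioadenosine left by polyamine synthesis, and MT-DADMe-ImmA blocks that enzyme. The sources used here do not say how the MTAP-positive cells were made, whether they are 1 clone, or what vehicle the inhibitor had. Without inhibitor-treated MTAP-negative arrays, effects of the compound through MTAP and apart from it cannot be told apart.

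Proteins that enter the ER are folded there by the HSP70-type chaperone BiP and its cofactors, by lectin chaperones that read sugar chains, and by disulfide isomerases. When unfolded protein accumulates, BiP leaves the sensors IRE1, PERK and ATF6, and the signalling that follows is known as the unfolded protein response. IRE1 splices XBP1 mRNA, ATF6 is cut to release a transcription factor, and PERK slows translation and favours that of ATF4. These outputs raise chaperone and degradation genes. Secretory cells such as fibroblasts, which export collagen, depend on this system.

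Values are the deposited log2 RMA signals, and a change is a difference of group means in log2 with its standard error (SE) from limma. A gene was called changed at a Benjamini-Hochberg adjusted p below 0.05 over 7010 genes. Levels of different probe sets are not comparable, so comparisons are within a probe set. In a bulk sample, fewer cells of a kind and less RNA per cell cannot be told apart.

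MTAP followed the labels: its log2 level was 11.20 ± 0.10 with the inhibitor, 11.58 ± 0.19 in untreated MTAP-positive cells and 4.56 ± 0.41 in MTAP-negative ones (SD, n = 3 each). Of 10 mesenchymal markers 8 had values, against 0 of 4 endothelial markers, 2 of 7 epithelial ones (KRT8 and KRT18), 1 of 5 blood markers (LYZ) and 1 of 4 secretory ones (SDC1). Some markers differed between groups: in inhibitor-treated, MTAP-positive and MTAP-negative cells FN1 averaged 12.38, 12.15 and 10.81, COL6A2 8.95, 8.62 and 7.30, and LYZ 5.68, 7.35 and 4.89, and their part in the results was not tested. Array medians lay between 8.24 and 8.38. The 5' minus 3' signal of the ACTB control, a measure of RNA integrity, was -1.64 ± 0.66, -1.43 ± 0.45 and -2.50 ± 0.90 in the same order of groups, and MTAP-negative replicate 3 was lowest at -3.52.

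With the inhibitor, 6 of the 34 tested members fell and 1 rose relative to untreated MTAP-positive cells. Over all genes 14.9% were called, 6.36% higher and 8.5% lower. The 6 that fell were HSPA5, CRELD2, MANF, SDF2L1, DNAJB11 and DNAJC3, which are grouped here with the BiP system. The 1 that rose was the glycoprotein sensor UGGT1. The median change of the members was 0.03 (log2), beside -0.02 for all genes. For 14 members the 3 treated and 3 untreated values were fully separate, as for 36.4% of all genes. After centring arrays on their medians 3 members were higher and 5 lower, and after renewed quantile normalization 2 were higher and 5 lower. With the replicate number as a block, 12 members passed, the same 6 lower ones together with UGGT1, DNAJB9, XBP1, CREB3L2, HERPUD1 and SEC24D higher. Without inhibitor-treated replicate 3 the count was 2, SDF2L1 and CRELD2.

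MTAP-positive cells differed from MTAP-negative cells in 5 members, all higher, where 19.1% of all genes were called, 11.7% higher and 7.36% lower. They were HSPA5, PDIA3, P4HB, XBP1 and HERPUD1. By limma 0 members were lower at the adjusted threshold and 2 at an unadjusted p below 0.05. The median change was 0.06 for members and 0.01 for all genes, and 9 members did not overlap between the groups, where 35.2% of all genes did not. With the ACTB 5' minus 3' difference as a covariate, limma called 0 of 34 members, 6 had an unadjusted p below 0.05, and the lowest adjusted p was 0.0504. The changes themselves kept their sign in 33 of 34 members, and HSPA5 read 0.57, HERPUD1 0.66, PDIA3 0.60, XBP1 0.30 and P4HB 0.29 in that fit. HSPA5 and HERPUD1 alone passed when MTAP-negative replicate 2 or 3, or MTAP-positive replicate 3, was left out.

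Between inhibitor-treated and MTAP-negative cells 15 members differed, 8 higher and 7 lower, where 37.3% of all genes were called, 19.3% higher and 18% lower. The median change was 0.09 for members and 0 for all genes, and 21 members did not overlap, where 54.6% of all genes did not. This comparison shares its arrays with the other pair, so the 3 sets of values are given side by side and not as separate evidence. With the ACTB covariate 7 members passed.

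**Figure D1:**
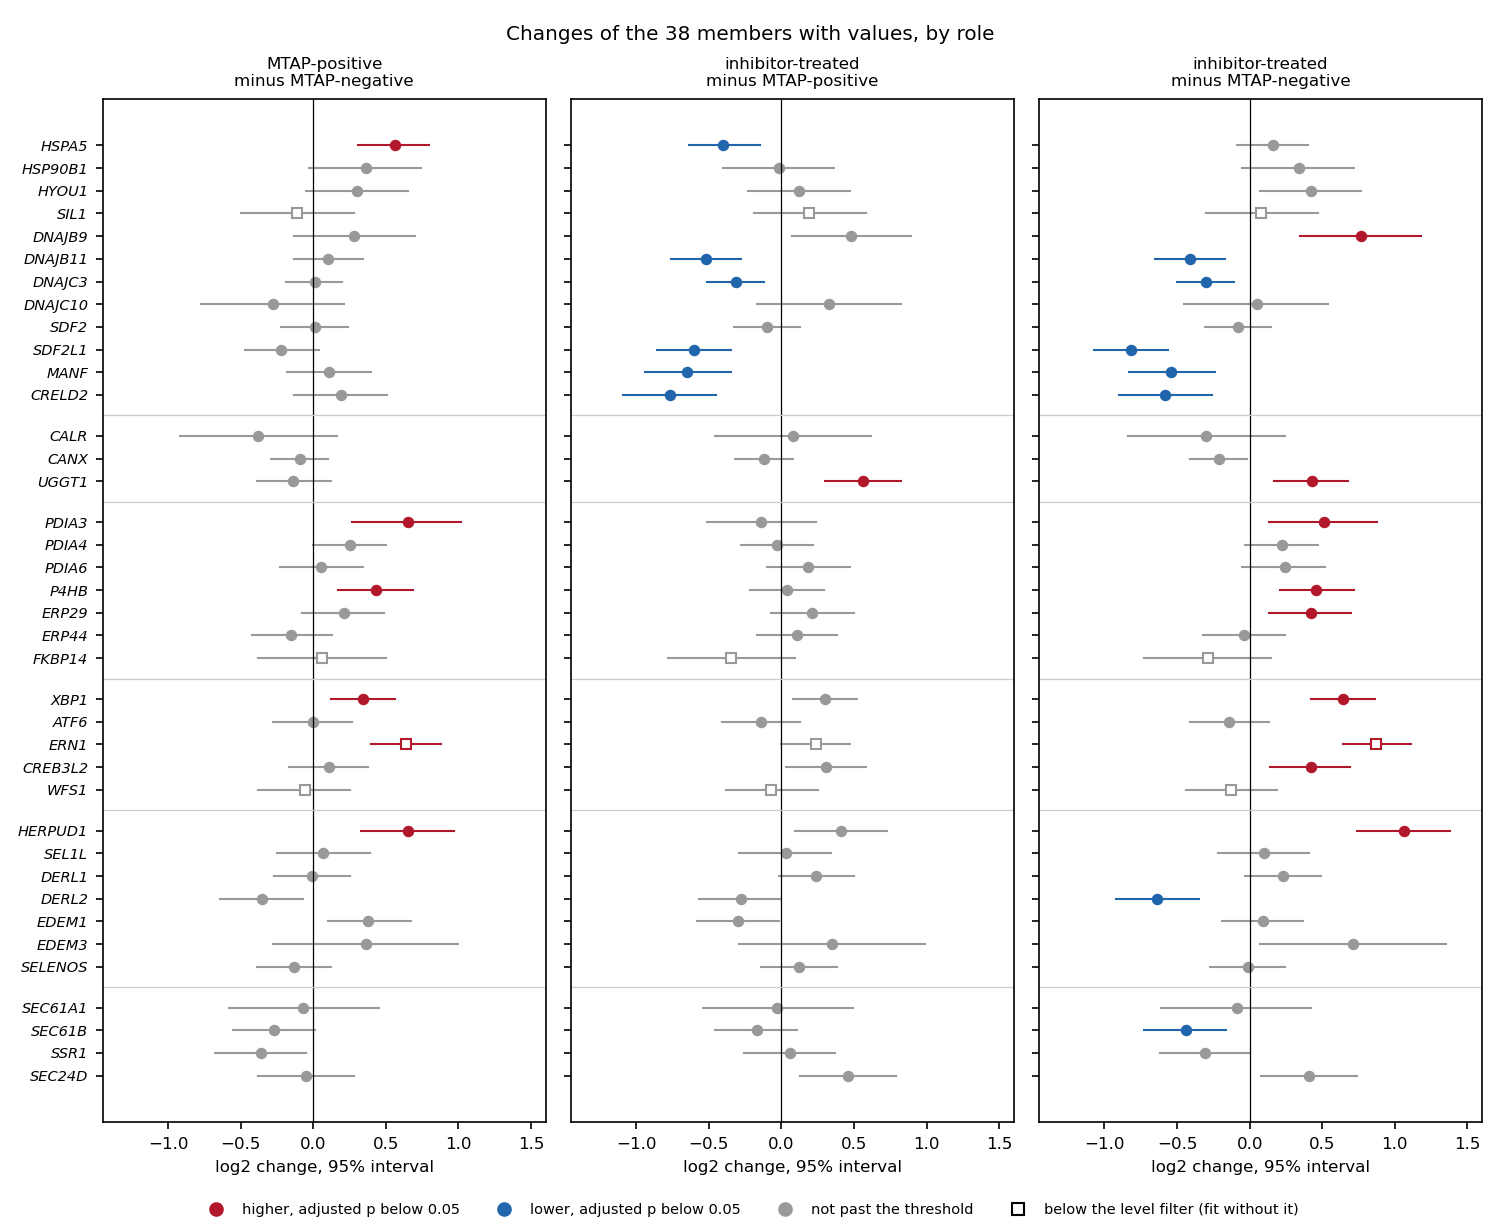
Log2 change with its 95% interval for the 38 members with values, by role from the BiP system at the top to translocation and export at the bottom, in the 3 comparisons. Red marks members called higher, blue called lower and grey neither, and open squares are the 4 members below the filter on low values. In the middle panel the blue points all belong to the group called here the BiP system, from -0.77 for CRELD2 to -0.31 for DNAJC3. Members and lists were chosen with earlier results of these data known, so this is description only.

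HSPA5 encodes BiP itself. It read 12.25, 12.10 and 12.15 in inhibitor-treated cells, against 12.67, 12.56 and 12.47 in MTAP-positive cells and 12.14, 11.82 and 12.07 in MTAP-negative cells. The MTAP-positive arrays lay above all arrays of both other groups, which overlapped each other. It was 1.47-fold higher in MTAP-positive than in MTAP-negative cells (0.56 ± 0.11, limma adjusted p = 0.00733) and 1.32-fold lower with the inhibitor than without (-0.40 ± 0.11, adjusted p = 0.0363). Inhibitor-treated and MTAP-negative cells differed by 0.16 ± 0.11 (adjusted p = 0.284). The second HSPA5 probe set gave -0.52 ± 0.15 with the inhibitor and 0.44 ± 0.15 with MTAP, neither past the threshold. The fall of HSPA5 did not pass with the ACTB covariate, without MTAP-positive replicate 1 or 2, or without any 1 of the 3 inhibitor-treated replicates, with adjusted p up to 0.126 over its alternatives.

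CRELD2, an ER-resident protein induced in ER stress, had the largest fall among members with the inhibitor against MTAP-positive cells. Its values were 8.94, 8.86 and 8.67 in inhibitor-treated cells, against 9.85, 9.33 and 9.60 in MTAP-positive cells and 9.40, 9.24 and 9.56 in MTAP-negative cells. Every inhibitor-treated array lay below all 6 untreated arrays. The change was -0.77 ± 0.14 against MTAP-positive cells (1.71-fold lower, adjusted p = 0.00749) and -0.58 ± 0.14 against MTAP-negative cells (adjusted p = 0.0105).

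MANF, a small ER protein that binds BiP and can be secreted, behaved alike, at 9.34, 9.18 and 9.14 with inhibitor, against 10.01, 9.87 and 9.73 in MTAP-positive and 9.84, 9.49 and 9.94 in MTAP-negative cells. Here too all inhibitor-treated arrays lay below all untreated ones. It changed by -0.65 ± 0.13 against MTAP-positive (1.57-fold lower, adjusted p = 0.011) and by -0.54 ± 0.13 against MTAP-negative cells (adjusted p = 0.01).

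SDF2L1 and DNAJB11 (ERdj3) form a complex that keeps BiP clients soluble. SDF2L1 read 7.66, 7.59 and 7.40 with inhibitor, against 8.28, 8.08 and 8.10 in MTAP-positive and 8.54, 8.30 and 8.26 in MTAP-negative cells. It was 1.52-fold lower than in MTAP-positive cells (-0.60 ± 0.11, adjusted p = 0.00782) and 1.76-fold lower than in MTAP-negative cells (-0.82 ± 0.11, adjusted p = 5.05e-04). Its inhibitor-treated arrays all lay below the filter level of 7.96, so SDF2L1 was tested through its untreated arrays alone, which favours a fall. Both calls were kept in all 17 alternatives that tested SDF2L1, the fit with no further filter among them. DNAJB11 read 8.98, 8.96 and 8.92 with inhibitor, against 9.63, 9.37 and 9.42 in MTAP-positive and 9.46, 9.20 and 9.45 in MTAP-negative cells. Its changes were -0.52 ± 0.11 (adjusted p = 0.0116) and -0.41 ± 0.11 (adjusted p = 0.0131) against the untreated groups in that order. For both genes the inhibitor-treated arrays lay below every untreated array.

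DNAJC3 (p58IPK), a BiP cofactor known also to inhibit kinases of eIF2alpha, showed the smallest of the 6 falls. It had 9.26, 9.22 and 9.32 with inhibitor, against 9.52, 9.59 and 9.61 in MTAP-positive and 9.60, 9.49 and 9.61 in MTAP-negative cells. Inhibitor-treated arrays lay below all untreated ones, and it changed by -0.31 ± 0.09 (adjusted p = 0.0394) and -0.30 ± 0.09 (adjusted p = 0.0208). The call against MTAP-positive cells was lost in 13 of 19 alternatives, with adjusted p up to 0.153. That against MTAP-negative cells was lost in 6 of 19, and read -0.01 with the mean of its probe sets, of which the other gave 0.28 ± 0.47.

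Of the 11 tested BiP-system members (with GRP94), 6 were lower and 0 higher with the inhibitor by limma, where 8.5% of all genes were lower and 6.36% higher. At an unadjusted p below 0.05, 1 was higher. Members and lists were chosen with earlier results of these data known, so this count is description only. Without inhibitor-treated replicate 3 only 2 members in all passed. The exception by direction was DNAJB9 (ERdj4), the cofactor that brings BiP to IRE1. It read 8.90, 9.21 and 9.23 with inhibitor, against 8.17, 8.75 and 8.98 in MTAP-positive and 8.23, 8.42 and 8.41 in MTAP-negative cells. Inhibitor-treated arrays lay above all MTAP-negative ones and overlapped the widely spread MTAP-positive ones. DNAJB9 was 1.70-fold higher with inhibitor than in MTAP-negative cells (0.77 ± 0.19, adjusted p = 0.00943). Against MTAP-positive cells it differed by 0.48 ± 0.19 (adjusted p = 0.113), and passed with the replicate block (0.48 ± 0.12, adjusted p = 0.0213).

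The remaining BiP-system members did not pass in any comparison. With the inhibitor HSP90B1, the ER form of HSP90 known as GRP94, differed by -0.02 (95% interval -0.40 to 0.36), on probe sets that may bind several transcripts. HYOU1 (GRP170), which exchanges the nucleotide of BiP, differed by 0.12 (-0.23 to 0.47), and the reductase cofactor DNAJC10 by 0.33 (-0.17 to 0.82). SDF2, the close relative of SDF2L1, differed by -0.10 (-0.33 to 0.13), so a fall as large as that of SDF2L1 lies outside its interval. SIL1, a second exchange factor, lay below the filter, with 7.48 ± 0.18, 7.29 ± 0.38 and 7.40 ± 0.09 in inhibitor-treated, MTAP-positive and MTAP-negative cells.

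**Figure D2:**
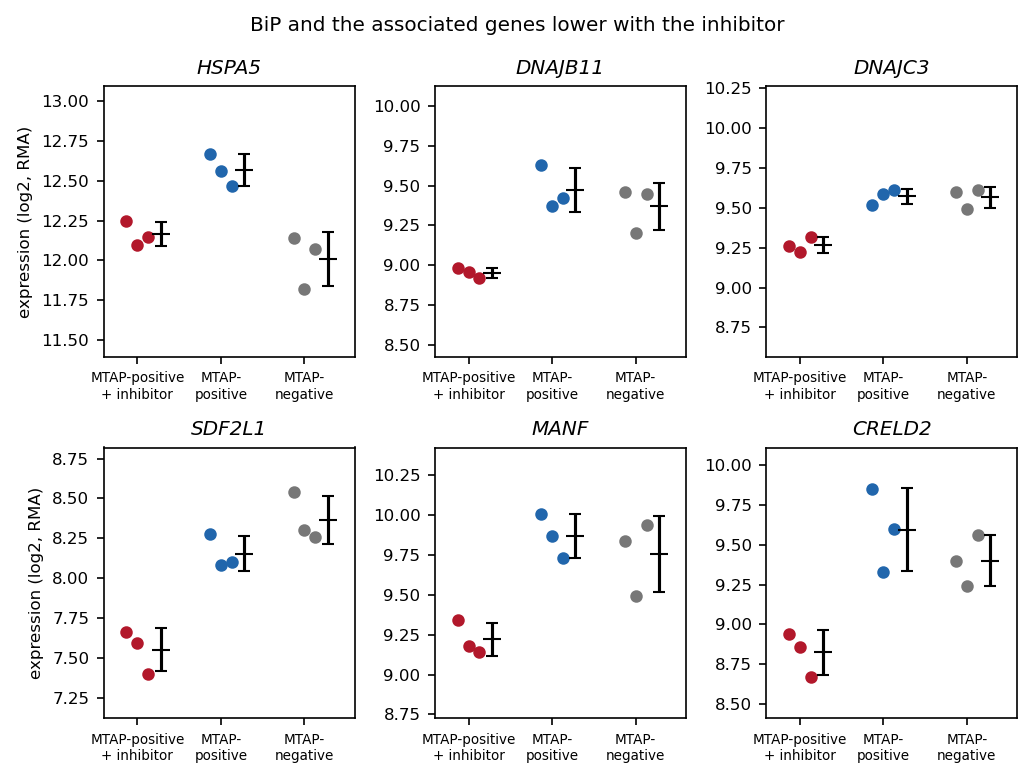
Expression (log2, RMA) of the 6 members lower with the inhibitor on each of the 9 arrays, as points, with mean ± SD beside them (n = 3). HSPA5 is highest in MTAP-positive cells, at 12.57 ± 0.10, while the other 5 genes are lowest in inhibitor-treated cells and overlap between MTAP-positive and MTAP-negative cells.

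Promoters of several members carry the ER stress element, to which cleaved ATF6 and spliced XBP1 bind together with NF-Y, and the sequences are shown because 3 of the 6 members that fell hold a copy. The element was defined from such promoters, so its presence here is background and not a result. Both strands of 35116 RefSeq promoters (GRCh38.p14, 250 bases before to 50 after a gene's start) were searched for ERSE, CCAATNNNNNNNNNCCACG, and for ERSE-II, ATTGGNCCACG; the pair share their last letters, CCACG. ERSE lay in 0.0769% of promoters and 0.0916% of 27305 genes, and ERSE-II in 0.0541% of promoters and 0.0696% of genes. Of 36 members in the table, 7 held ERSE (HSPA5, CRELD2, XBP1, HSP90B1, CALR, CANX and PDIA6) and 3 held ERSE-II (SDF2L1, HERPUD1 and HYOU1). The windows below run 5' to 3' on the gene's strand and end before the start, with the element in capitals.
HSPA5 (chr9:125241344-125241469, minus strand, ERSE): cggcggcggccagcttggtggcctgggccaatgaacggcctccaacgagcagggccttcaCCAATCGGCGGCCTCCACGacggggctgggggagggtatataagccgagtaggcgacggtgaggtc
CRELD2 (chr22:49918534-49918592, plus strand, ERSE on the opposite strand): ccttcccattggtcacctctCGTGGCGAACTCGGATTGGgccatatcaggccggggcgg
SDF2L1 (chr22:21642094-21642144, plus strand, ERSE-II on the opposite strand): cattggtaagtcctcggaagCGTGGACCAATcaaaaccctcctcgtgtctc
XBP1 (chr22:28800583-28800641, minus strand, ERSE): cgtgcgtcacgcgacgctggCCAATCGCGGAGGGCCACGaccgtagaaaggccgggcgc
HERPUD1 (chr16:56932005-56932055, plus strand, ERSE-II): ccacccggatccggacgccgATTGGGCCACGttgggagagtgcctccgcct

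Whether the element goes with the direction of change was not tested. With the inhibitor, HSPA5, CRELD2 and SDF2L1 fell, HERPUD1 and XBP1 missed the threshold and passed, higher, with the replicate block, and the other 5 holders did not pass. DNAJB11, MANF and DNAJC3 fell and held neither element in these exact letters within this window.

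**Figure D3:**
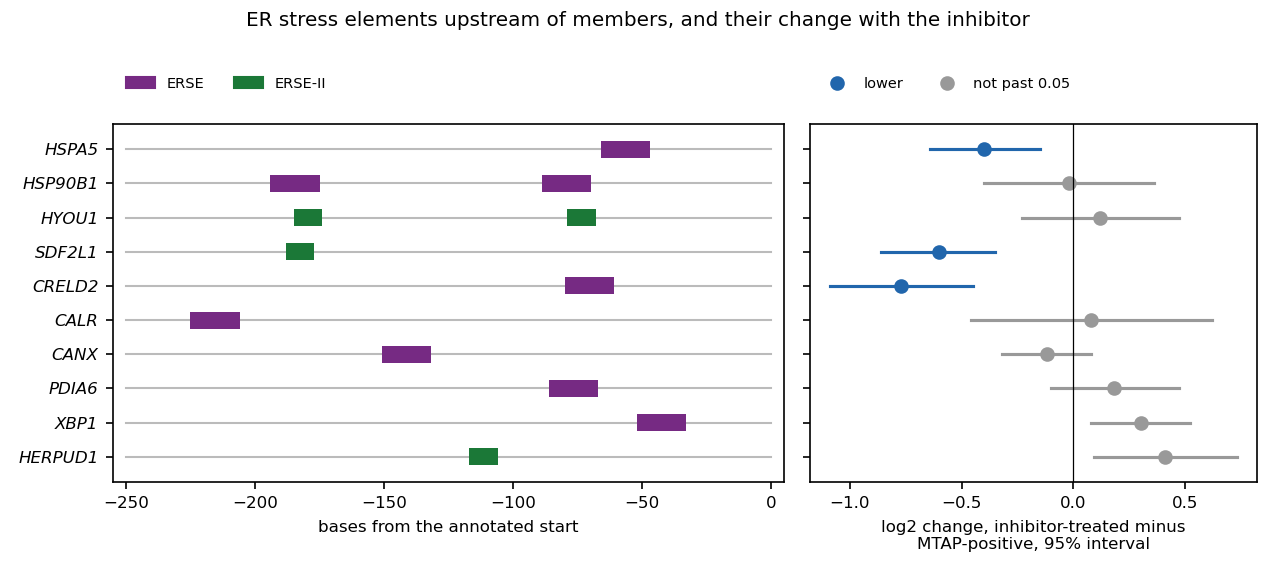
Left, position of ERSE and ERSE-II in bases from the annotated start of the 10 members that hold one, with CANX shown at 1 of its 3 annotated starts. Right, log2 change of inhibitor-treated minus MTAP-positive cells with its 95% interval, from -0.77 for CRELD2 to 0.41 for HERPUD1, which missed the threshold. The estimates lie on both sides of 0.

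Among lectin chaperones, UGGT1 moved apart from the rest. UGGT1 adds glucose back to misfolded glycoproteins and so returns them to calnexin and calreticulin. It read 8.62, 8.59 and 8.70 with inhibitor, against 8.23, 7.84 and 8.15 in MTAP-positive and 8.31, 8.17 and 8.15 in MTAP-negative cells. Inhibitor-treated arrays were above every untreated array, and the rise was 1.48-fold over MTAP-positive (0.56 ± 0.12, adjusted p = 0.0113) and 1.34-fold over MTAP-negative cells (0.43 ± 0.12, adjusted p = 0.016). Its other 2 probe sets gave 0.16 ± 0.51 and 0.46 ± 0.17 with the inhibitor and did not pass. The call against MTAP-positive cells was lost with the mean of its probe sets, with _s_at probe sets left out, and without inhibitor-treated replicate 3. That against MTAP-negative cells was lost in the same settings, in which the sign turned with _s_at probe sets left out (-0.04), and without MTAP-negative replicate 3.

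Calnexin (CANX) differed with the inhibitor by -0.12 (95% interval -0.32 to 0.08) and calreticulin (CALR) by 0.08 (-0.46 to 0.62), and MTAP-positive replicate 2 read 10.91 against 11.87 and 11.95 in the other MTAP-positive replicates. Neither passed in the other comparisons.

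Of the 6 tested disulfide isomerases and folding enzymes, 2 were higher in MTAP-positive than in MTAP-negative cells, PDIA3 and P4HB, and 4 did not pass. Over all genes 19.1% were called in that comparison, 11.7% higher. With the inhibitor against MTAP-positive cells limma called 0 of 6, where 14.9% of all genes were called, and 0 had an unadjusted p below 0.05. PDIA3 (ERp57), which works on glycoproteins held by the lectin chaperones, read 11.20, 10.76 and 10.73 with inhibitor, against 11.21, 10.94 and 10.95 in MTAP-positive and 10.70, 10.15 and 10.32 in MTAP-negative cells. All arrays with MTAP lay above all arrays without it. PDIA3 was 1.57-fold higher in MTAP-positive (0.65 ± 0.17, adjusted p = 0.026) and 1.42-fold higher in inhibitor-treated than in MTAP-negative cells (0.51 ± 0.17, adjusted p = 0.0378). With against without inhibitor the difference was -0.14 (95% interval -0.51 to 0.24).

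P4HB is protein disulfide isomerase itself and a subunit of the enzyme that hydroxylates collagen prolines. It read 12.42, 12.51 and 12.37 with inhibitor, against 12.41, 12.29 and 12.48 in MTAP-positive and 12.14, 12.01 and 11.75 in MTAP-negative cells. The MTAP-negative arrays were again the lowest, by 0.43 ± 0.12 (adjusted p = 0.0301) below MTAP-positive and 0.46 ± 0.12 (adjusted p = 0.0109) below inhibitor-treated cells. Its other probe sets differed by 1.12 ± 0.35 and 2.04 ± 0.87 between MTAP-positive and MTAP-negative cells, larger and less precise. ERP29, a chaperone of secreted proteins, passed only between inhibitor-treated and MTAP-negative cells (11.12 ± 0.11 and 10.70 ± 0.22, SD, n = 3; change 0.42 ± 0.13, adjusted p = 0.0269), a call lost in 4 of 19 alternatives.

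PDIA4, PDIA6 and ERP44 passed in no comparison, with changes between -0.15 and 0.25, although another PDIA6 probe set was higher than in MTAP-negative cells both in inhibitor-treated (0.63 ± 0.14, adjusted p = 0.00724) and in MTAP-positive cells (0.46 ± 0.14, adjusted p = 0.0481). ACTB integrity was lowest in MTAP-negative cells, the group in which PDIA3 and P4HB were also lowest. Against MTAP-positive cells, the call of PDIA3 was lost in 5 of 19 alternatives and that of P4HB in 7 of 19. Both fell away when ACTB integrity was fitted, and when MTAP-negative replicate 2 or 3 or MTAP-positive replicate 1 or 3 was dropped. P4HB also lost its call with the mean of its probe sets and with only those 2 groups fitted. With ACTB integrity fitted PDIA3 changed by 0.60, and with MTAP-negative replicate 3 dropped by 0.61, near its 0.65. P4HB changed by 0.29 and 0.32 in those fits, against 0.43. The other dropped arrays gave 0.53 to 0.69 for PDIA3 and 0.38 to 0.45 for P4HB. Whether RNA integrity caused any of these losses was not tested. The call of PDIA3 between inhibitor-treated and MTAP-negative cells was lost in 8 of 19 alternatives, with changes down to 0.25 for the mean of its probe sets. FKBP14, a prolyl isomerase for collagens, was below the filter at 7.43 ± 0.13 with inhibitor, 7.77 ± 0.47 in MTAP-positive and 7.71 ± 0.13 in MTAP-negative cells.

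XBP1 encodes the transcription factor whose mRNA IRE1 splices. It read 9.03, 8.98 and 8.95 with inhibitor, against 8.79, 8.69 and 8.57 in MTAP-positive and 8.45, 8.23 and 8.36 in MTAP-negative cells. No 2 of the groups overlapped. The change was 0.64 ± 0.10 between inhibitor-treated and MTAP-negative cells (1.56-fold, adjusted p = 8.68e-04), kept in all 19 alternatives. It was 0.34 ± 0.10 between MTAP-positive and MTAP-negative cells (adjusted p = 0.0394), lost in 13 of 19 alternatives. With against without inhibitor it was 0.30 ± 0.10, with adjusted p = 0.0671 and, with the replicate block, 0.0395. The array value does not separate spliced from unspliced XBP1 mRNA, so it says nothing of IRE1 activity.

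ERN1, which encodes IRE1 itself, was dim and below the filter. Its values were 7.76, 7.87 and 7.84 with inhibitor, against 7.54, 7.45 and 7.78 in MTAP-positive and 6.96, 6.98 and 6.90 in MTAP-negative cells. The MTAP-negative arrays lay apart below the other 6. In the fit with no further filter, where 18.5% of 9452 genes were called for the first pair below and 35% for the second, ERN1 was higher in MTAP-positive (0.64 ± 0.11, adjusted p = 0.00307) and in inhibitor-treated cells (0.87 ± 0.11, adjusted p = 2.39e-04) than in MTAP-negative cells.

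CREB3L2, an ER-anchored transcription factor of the secretory pathway, was higher with inhibitor than in MTAP-negative cells (10.77 ± 0.13 and 10.35 ± 0.17, SD, n = 3; change 0.42 ± 0.12, adjusted p = 0.0236). That call was lost in 5 of 18 alternatives, the change was 0.19 with the mean of its probe sets, and the other probe set gave -0.03 ± 0.14. ATF6 depended on the probe set. Its brightest probe set read 8.63 ± 0.18, 8.77 ± 0.10 and 8.77 ± 0.15 in inhibitor-treated, MTAP-positive and MTAP-negative cells and passed in no comparison. A dimmer one had means of 8.16, 7.74 and 6.79 and, in the fit of every probe set, was higher in MTAP-positive (0.95 ± 0.18, adjusted p = 0.007) and in inhibitor-treated cells (1.37 ± 0.18, adjusted p = 4.89e-04) than in MTAP-negative cells. WFS1, the ER protein lost in Wolfram syndrome, was below the filter, at 7.59 ± 0.20, 7.65 ± 0.24 and 7.71 ± 0.08 in that order of groups.

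**Figure D4:**
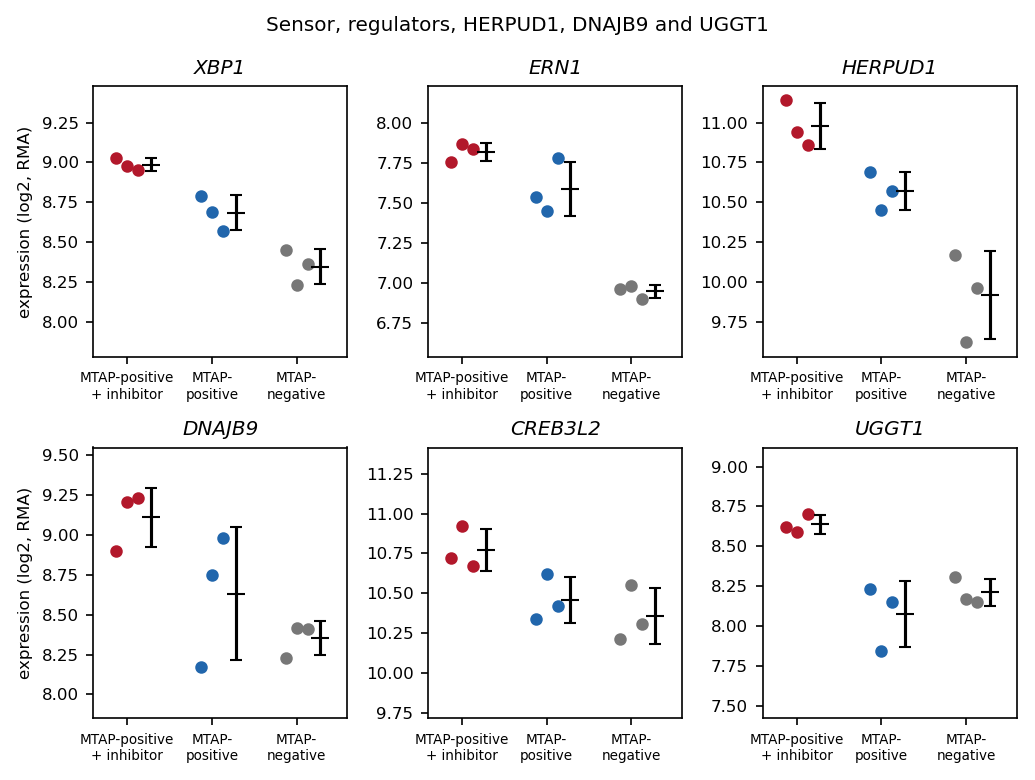
Expression (log2, RMA) of XBP1, ERN1, HERPUD1, DNAJB9, CREB3L2 and UGGT1 on each of the 9 arrays, as points, with mean ± SD beside them (n = 3). All 6 are highest in the inhibitor-treated group by mean, and XBP1 and HERPUD1 step down to MTAP-positive and again to MTAP-negative cells with no overlap. The genes were picked for display. Of the members not shown, ATF6, WFS1 and DERL2 were lowest in the inhibitor-treated group by mean, while EDEM3 and DERL1 were highest there.

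HERPUD1, a membrane protein that organises the degradation complex and is among the most readily induced ER stress genes, had the largest change among tested members. It read 11.14, 10.94 and 10.86 with inhibitor, against 10.69, 10.45 and 10.57 in MTAP-positive and 10.17, 9.62 and 9.96 in MTAP-negative cells. No 2 groups overlapped. It was 2.09-fold higher with inhibitor than in MTAP-negative cells (1.06 ± 0.14, adjusted p = 4.37e-04) and 1.57-fold higher in MTAP-positive than in MTAP-negative cells (0.65 ± 0.14, adjusted p = 0.0126). With against without inhibitor the change was 0.41 ± 0.14 (adjusted p = 0.083), and 0.41 ± 0.10 with the replicate block (adjusted p = 0.0215).

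DERL2, a channel-forming partner of the same complex, went the other way, with 8.77, 8.55 and 8.61 with inhibitor, against 9.19, 8.75 and 8.83 in MTAP-positive and 9.19, 9.38 and 9.28 in MTAP-negative cells. It was 1.56-fold lower with inhibitor than in MTAP-negative cells (-0.64 ± 0.13, adjusted p = 0.00341), and passed in neither other comparison. EDEM1, which directs misfolded glycoproteins to degradation, read 9.14, 8.77 and 9.09 with inhibitor, against 9.45, 9.12 and 9.32 in MTAP-positive and 8.95, 8.97 and 8.82 in MTAP-negative cells. Its change with MTAP, 0.38 ± 0.13, had adjusted p = 0.0584, and 0.0302 with the replicate block. SEL1L, DERL1 and SELENOS passed in no comparison, nor did EDEM3, a relative of EDEM1. EDEM3 read 8.60, 9.50 and 9.05 with inhibitor, against 8.10, 9.30 and 8.70 in MTAP-positive and 8.47, 8.14 and 8.41 in MTAP-negative cells. Its change between inhibitor-treated and MTAP-negative cells, 0.71 ± 0.29 (adjusted p = 0.0783), passed in 7 of 18 alternatives, the replicate block among them (adjusted p = 0.0344).

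Of the 4 translocation and export members only SEC61B, the small subunit of the translocon, passed. It did so only between inhibitor-treated and MTAP-negative cells, where 37.3% of all genes were called. Its levels there were 10.41 ± 0.14 and 10.85 ± 0.12 (SD, n = 3), and its change was -0.44 ± 0.13 (limma adjusted p = 0.0201), a call lost in 3 of 19 alternatives. SEC24D, a cargo adaptor of COPII vesicles, read 8.61, 8.16 and 8.46 with inhibitor, against 8.08, 7.76 and 8.01 in MTAP-positive and 8.03, 8.18 and 7.79 in MTAP-negative cells. It missed the threshold with inhibitor against MTAP-positive cells (0.46 ± 0.15, adjusted p = 0.0623) and passed with the replicate block (adjusted p = 0.0405). Against MTAP-negative cells SEC24D also missed it (0.41 ± 0.15, adjusted p = 0.0508), and passed in 9 of 18 alternatives. The channel subunit SEC61A1 and the translocon-associated SSR1 passed in no comparison.

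Several genes rest on 1 of a number of probe sets, and the probe sets of some disagree in sign. SSR1 had 6. Its brightest did not pass in any comparison, while among the others 1 was lower in MTAP-positive than in MTAP-negative cells (-0.62 ± 0.09, adjusted p = 0.00222) and 1 higher (0.45 ± 0.11, adjusted p = 0.0209). CANX, CALR and DERL1 also had probe sets of both signs in that comparison, none past the threshold. Probe sets of PDIA3 were all higher, from 0.26 to 0.65, and those of P4HB from 0.43 to 2.04.

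**Figure D5:**
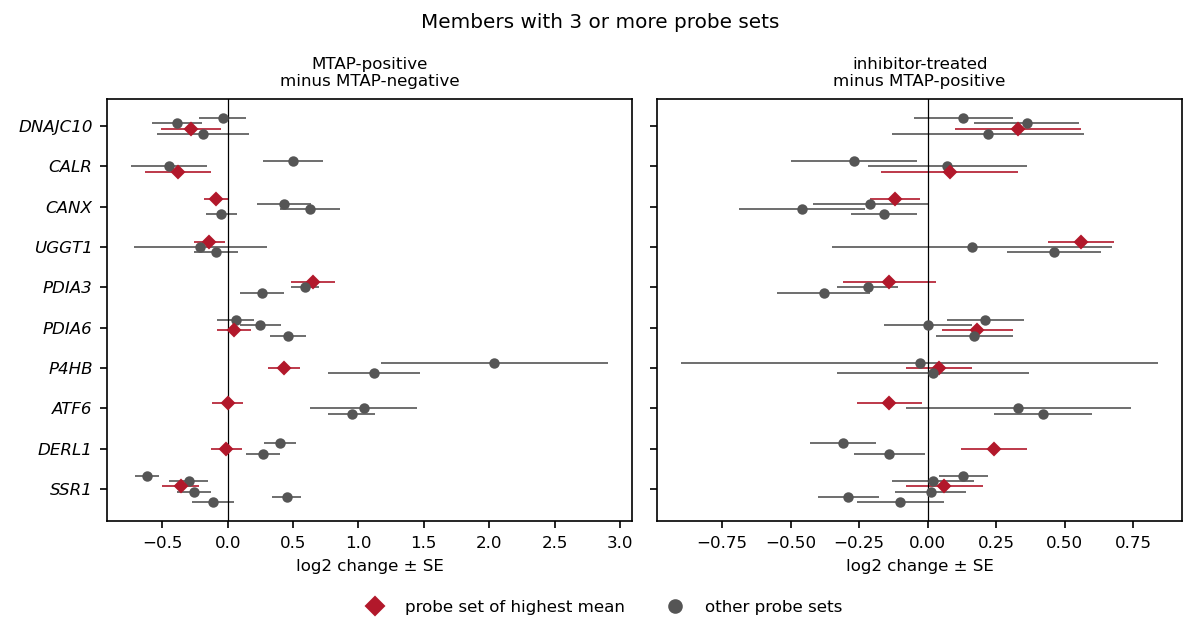
Log2 change ± SE of every probe set of the 10 members with 3 or more, MTAP-positive minus MTAP-negative on the left and inhibitor-treated minus MTAP-positive on the right. Red diamonds are the probe sets of highest mean, used for the tests. ATF6, CANX, CALR, DERL1 and SSR1 have probe sets on both sides of 0 or far apart in the left panel.

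Outside the member list, 85 of 99 other genes of ER folding, glycosylation, translocation, degradation, export and stress signalling were tested. With the inhibitor 5 rose and 5 fell, 11.8% of them, near the 14.9% of all genes. Those that rose included DDIT3 and TRIB3, which can act downstream of PERK and ATF4, and whether PERK was active here was not tested. DDIT3, the transcription factor CHOP, read 9.33, 9.75 and 9.93 with inhibitor, against 8.87, 8.80 and 8.78 in MTAP-positive cells (0.85 ± 0.14, adjusted p = 0.00472). TRIB3, a pseudokinase induced by ATF4 and CHOP, read 10.60, 10.68 and 10.65 with inhibitor, against 10.04, 9.80 and 9.82 in MTAP-positive cells (0.75 ± 0.10, adjusted p = 0.00201). Both genes were thus above every MTAP-positive array while BiP was below. ATF4 itself changed by 0.52 ± 0.16, with an adjusted p of 0.05 that lay above the threshold before rounding. It passed in 7 of 19 alternatives, the replicate block among them (adjusted p = 0.00951). Against MTAP-negative cells ATF4 and TRIB3 were called higher with inhibitor, and in all 19 alternatives (0.60 to 0.75 and 0.84 to 1.01). EIF2AK3, which encodes PERK, fell by 0.31 (SE 0.09, adjusted p = 0.0393), a call lost in 12 of 18 alternatives. Its means were 8.01 with inhibitor, 8.32 in MTAP-positive and 8.04 in MTAP-negative cells. EIF2AK3 was also called higher in MTAP-positive than in MTAP-negative cells, a call lost in 14 of 18 alternatives. PPP1R15A, the phosphatase subunit GADD34, differed by 0.13 ± 0.19 (adjusted p = 0.688), and ATF6B is not analysed here.

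KDELR3, a receptor that returns escaped ER chaperones, was 1.68-fold higher with inhibitor than in MTAP-positive cells (9.88 ± 0.05 and 9.13 ± 0.07, SD, n = 3; adjusted p = 0.00179). SSR3, a translocon-associated subunit, was 11.75 ± 0.10 with inhibitor, 10.95 ± 0.15 in MTAP-positive and 11.85 ± 0.12 in MTAP-negative cells, lower in MTAP-positive than in MTAP-negative cells by -0.90 ± 0.11 (adjusted p = 5.86e-04) and higher with inhibitor by 0.79 ± 0.11 (adjusted p = 0.00232). The oligosaccharyltransferase subunit MAGT1 (-0.56 ± 0.11) and the extraction factor UFD1 (-0.55 ± 0.12) had the largest falls of the 85 with the inhibitor. In MTAP-positive against MTAP-negative cells 9 of the 85 were higher and 6 lower, 17.6% of them where 19.1% of all genes were called, led by SSR3, the secreted STC2 (0.79 ± 0.14), the ubiquitin-conjugating UBE2G2 (0.74 ± 0.22) and HERPUD2 (0.69 ± 0.12). The call of UBE2G2 was lost in 12 of 18 alternatives, and its change was 0.29 with the mean of its probe sets and 0.45 without MTAP-negative replicate 2. The vesicle GTPase SAR1B (-0.62 ± 0.19) and the signal recognition particle receptor subunit SRPRB (-0.56 ± 0.12) were lower. The call of SAR1B was lost in 10 of 18 alternatives, with -0.37 for the mean of its probe sets and -0.41 without MTAP-negative replicate 2. Between inhibitor-treated and MTAP-negative cells 17 were higher and 10 lower, 31.8% of them where 37.3% of all genes were called, led by DDIT3 (1.08 ± 0.14), the glucosidase subunit GANAB (1.02 ± 0.25) and, lower, the signal peptidase subunit SEC11C (-0.93 ± 0.14). GANAB read 11.34, 11.25 and 10.18 in MTAP-negative cells, and its change was 0.65 without replicate 3 of that group. SEC11C read 7.60, 7.34 and 7.79 with inhibitor, below the filter level of 7.96, so it was tested through untreated arrays alone.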

How the data were processed

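The authors deposited log2 expression values per probe set, made with RMA per the submitters' processing notes; no version is named there. RMA forces arrays to one distribution of values, so a shift shared by most genes would not show. Of 54675 probe sets 17474 had values, each at or above 6.64 (log2) on at least 3 arrays, so dim probe sets had been left out before deposit. Probe sets were named through the platform annotation; 4 that name a member together with a microRNA gene were not used, among them 2 of HSP90B1. All 38 members with values matched the RefSeq gene table by Entrez number with the same symbol.

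Each gene was represented by its single-symbol probe set of highest mean. A gene was tested if that probe set exceeded the 40th percentile of all values (log2 7.96) on at least 3 of 9 arrays, which kept 7011 of 9453 genes. limma 3.58.1 in R 4.3.3 fitted the 3 groups on all 9 arrays, with eBayes and Benjamini-Hochberg adjustment over 7010 genes, MTAP left out. Code was tested on simulated data. The 3 arrays per group limit precision, and p-values measure only the spread between them.

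Same-numbered arrays deviated together between MTAP-positive and MTAP-negative cells (correlations 0.38, 0.25 and 0.15 over genes) and between inhibitor-treated and MTAP-positive cells (0.77, 0.60 and 0.35), which paired them by number. Between inhibitor-treated and MTAP-negative cells only replicate 1 did (0.31, against 0.02 and 0.03), where differently numbered arrays gave -0.18 to 0.12. The replicate block therefore has less basis in that comparison. The main fit left the block out in all comparisons. With the inhibitor against MTAP-positive cells, the main fit called 1 member higher and 6 lower, and the blocked fit 6 higher and 6 lower.

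All 40 members are named by role. Other ER genes are named if among the 6 largest called changes of a comparison, with EIF2AK3, ATF6B, ATF4, DDIT3 and PPP1R15A named whatever their values. The members and lists were chosen with earlier results of these data known. Alternatives covered probe set choice, filters, scaling, the replicate block, array weights, the ACTB covariate and leaving out each array.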

Additional observations from a re-analysis of the deposited data

How the results depend on the processing

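Of 53 calls among the named genes, 24 were kept in every alternative that tested them, and 2 results reversed. SSR1 read 0.45 between MTAP-positive and MTAP-negative cells without _s_at and _x_at probe sets, and at the same setting UGGT1 read -0.04 for inhibitor-treated against MTAP-negative cells, because another probe set then stands for the gene. Between MTAP-positive and MTAP-negative cells the 5 members called became 3 with only those groups fitted, 0 with the ACTB covariate, and 9 probe sets when each was fitted on its own. There all genes called went from 1336 to 752, 470 and, with array weights, 2164, and other ER genes from 15 to 8, 3 and 23, and to 8 without _s_at and _x_at probe sets. With the inhibitor, pairing arrays by the replicate block called 12 members in place of 7 and 1589 genes in place of 1042. Array weights called 13 members, 1833 genes and 18 other ER genes. Between inhibitor-treated and MTAP-negative cells the ACTB covariate left 7 of 15 members. Dropping _s_at and _x_at probe sets, which leaves fewer genes tested, gave 1732 of 2613 genes and 17 of 27 other ER genes, and fitting every probe set gave 45 other ER probe sets. The replicate block changed no count of calls beyond these by over 1.5 times. Leaving out 1 array gave 2 to 6 members, 743 to 1583 genes and 5 to 14 other ER genes for MTAP-positive against MTAP-negative cells. For the inhibitor it gave 2 to 8 members, 372 to 1055 genes and 5 to 9 other ER genes, lowest without inhibitor-treated replicate 3. For inhibitor-treated against MTAP-negative cells it gave 11 to 17 members, 1844 to 2959 genes and 18 to 28 other ER genes. The causes of these changes were not tested. No detection calls were used here, so how far dim members such as ERN1 and SIL1 lay above background is unknown.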
